A study of Mus musculus with 6 samples.

Results

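The genes described here encode the phase II conjugating enzymes of mouse colon. They were the 66 genes, of 54532 in the deposited table, that carry a protein-coding biotype and a symbol of the UDP-glucuronosyltransferases Ugt1 to Ugt3, the sulfotransferases Sult1 to Sult6, the glutathione transferases of the alpha, kappa, mu, omega, pi and theta classes, or the microsomal glutathione transferases Mgst1 to Mgst3. By family there were 21 Ugt genes, 21 Sult genes, 21 Gst genes and 3 Mgst genes. The rule for them uses names alone and no measured value, though it was set with earlier results of these data known.

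Phase II enzymes attach a water-soluble group to foreign chemicals, drugs, hormones, bilirubin and bile acids. Ugt enzymes transfer glucuronic acid from UDP-glucuronate, Sult enzymes transfer sulfate from the donor PAPS, and glutathione transferases join glutathione to electrophiles and to products of lipid peroxidation. In the colon these reactions are best known from the surface epithelium, while the liver holds many of the same families, and exporters of the ABC class then carry the conjugates out of the cell.

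RNA was sequenced from distal colon of mice given 3% dextran sulfate sodium (DSS), which damages the lining of the colon, in drinking water for 7 days, with poly-A selection. There were 3 libraries labelled wild-type (WT 1 to WT 3) and 3 labelled Itgbl1 -/- (KO 1 to KO 3), and both labels received DSS, so no library shows uninjured colon. The labels do not say how the knockout allele was made, which strain, sex or age the animals had, or whether a library is 1 animal, and p-values therefore reflect only how these libraries spread, which may be technical. Itgbl1 had 19, 6 and 5 reads over WT 1, 2 and 3, with 12, 4 and 10 reads over KO 1, 2 and 3, a ratio of 0.878 with a 95% interval of 0.2497 to 3.08, so the counts show no loss under the knockout label and each direction below is between labels.

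Libraries held 13326970 to 18321389 counts. KO 3 had 12.8% mitochondrially encoded counts against 3.53 to 4.88% in the others, and its epithelial transcripts were nearly absent. The 10 markers of epithelium in general (Epcam, Cdh1, Krt8, Krt18, Krt19, Cldn3, Cldn7, Elf3, Cdx1 and Cdx2) summed to 12234, 20111 and 14101 CPM over WT 1, 2 and 3, with 936, 5836 and 48.4 CPM over KO 1, 2 and 3. All 10 of them were lower in every KO library than in every WT library, beside 17.3% of all genes tested. None was at 0 in any library. Cdx2, a transcription factor that defines intestinal epithelium, was at 16.6, 54.4 and 32.7 CPM over WT 1, 2 and 3, with 4.25, 12.2 and 0.0777 CPM over KO 1, 2 and 3, so the marker of the labelled tissue was nearly lost in KO 3. In bulk tissue, fewer cells of a type and less RNA per cell cannot be told apart.

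The 6 stretches of sequence before gene starts are shown first, because they belong to pairs of members with unlike log2 ratios (KO over WT): neighbours of the same class (Gstp1 and Gstp2, Ugt2b34 and Ugt2b1) and membrane enzymes (Mgst1 and Mgst3). Each is the 250 bases before the start of transcription from the RefSeq promoter table for GRCm38.p6, 5′ to 3′ on the strand of the gene. Capitals mark the form TGACNNNGC of the antioxidant response element or the core of the xenobiotic response element GCGTG, on either strand. Their positions are chr19:4037913-4038162, minus strand, for Gstp1; chr19:4042222-4042471, minus strand, for Gstp2; chr5:86906938-86907187, minus strand, for Ugt2b34. The others lie at chr5:86926504-86926753, minus strand, for Ugt2b1; chr6:138140277-138140526, plus strand, for Mgst1; and chr1:167393842-167394091, minus strand, for Mgst3. Mgst1 has another start in the promoter table, whose window at chr6:138141337-138141586 holds neither motif and is not shown. In the deposited table Mgst1 begins at 138140316, inside the window shown.
Gstp1: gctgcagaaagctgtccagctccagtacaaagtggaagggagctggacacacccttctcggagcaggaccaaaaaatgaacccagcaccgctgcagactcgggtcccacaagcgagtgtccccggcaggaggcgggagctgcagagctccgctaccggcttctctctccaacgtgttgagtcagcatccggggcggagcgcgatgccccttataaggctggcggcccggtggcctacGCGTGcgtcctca
Gstp2: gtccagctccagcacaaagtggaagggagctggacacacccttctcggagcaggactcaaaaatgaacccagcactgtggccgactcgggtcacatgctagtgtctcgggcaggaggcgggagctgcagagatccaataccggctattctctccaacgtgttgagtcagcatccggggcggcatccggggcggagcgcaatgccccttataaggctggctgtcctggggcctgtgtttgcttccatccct
Ugt2b34: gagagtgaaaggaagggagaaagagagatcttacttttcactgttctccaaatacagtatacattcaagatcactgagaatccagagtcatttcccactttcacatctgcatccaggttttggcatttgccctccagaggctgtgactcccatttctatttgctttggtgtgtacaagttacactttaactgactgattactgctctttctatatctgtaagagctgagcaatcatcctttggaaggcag
Ugt2b1: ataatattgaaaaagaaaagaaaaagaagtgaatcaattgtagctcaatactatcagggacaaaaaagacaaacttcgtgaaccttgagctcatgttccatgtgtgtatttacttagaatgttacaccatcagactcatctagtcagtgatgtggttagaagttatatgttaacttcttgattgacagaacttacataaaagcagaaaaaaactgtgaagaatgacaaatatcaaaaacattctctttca
Mgst1: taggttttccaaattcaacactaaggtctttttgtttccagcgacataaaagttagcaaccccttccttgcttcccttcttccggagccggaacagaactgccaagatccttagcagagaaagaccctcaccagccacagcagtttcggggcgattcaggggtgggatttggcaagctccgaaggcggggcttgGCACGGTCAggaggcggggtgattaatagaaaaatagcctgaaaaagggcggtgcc
Mgst3: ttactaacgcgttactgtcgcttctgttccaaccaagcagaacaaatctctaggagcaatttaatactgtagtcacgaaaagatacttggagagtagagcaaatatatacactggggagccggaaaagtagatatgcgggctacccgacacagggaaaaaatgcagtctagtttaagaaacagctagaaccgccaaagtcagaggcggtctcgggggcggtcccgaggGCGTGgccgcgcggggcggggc

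The upstream stretches of Gstp1 and Gstp2 were 78.1% identical in a global alignment, those of Ugt2b34 and Ugt2b1 48.1%, and those of Mgst1 and Mgst3 43.6%. GCGTG stood near the start of Gstp1 and Mgst3, TGACNNNGC before the start shown for Mgst1 on the opposite strand, and neither was in the other 3 windows. Only these exact letters were searched, here and for the shares below. The windows of Gstp1 and Gstp2 both hold tgagtcagc, which has G in place of the C of TGACNNNGC and is not marked. Other forms of the antioxidant response element were thus not counted. Across the table, 58 members had an entry. TGACNNNGC was in 4 of them (6.9%: Gsta3, Gstm5, Gstm7 and Mgst1), against 11.5% of 27025 genes. GCGTG was in 11 (19.0%), against 30.9% of all genes. Among the 33 tested members with an entry the shares were 12.1% and 24.2%. A gene with several starts counted once if any of its windows held the motif, and the motifs can overlap each other. Windows of this length leave out more distant elements.

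Of the 66 genes, 36 had enough reads for the test and 30 did not, of which 14 had no read in any library. No member passed the test. With edgeR's quasi-likelihood test, adjusted over 16861 genes, 0 members had an adjusted p under 0.05, the share of all genes so called was 0%, and the smallest adjusted p of a member was 0.09398. At an unadjusted p under 0.05 there were 21 of 36, 17 lower and 4 higher under the knockout label, and all genes tested gave 12.3% lower and 11.8% higher. DESeq2 on the same genes called 16 members, 14 lower and 2 higher, against 8.04% and 5.45% of all genes. Its calls were Gsta1, Gsta4, Gstk1, Gstm3, Gsto1, Gstp2, Gstp3, Gstt3, Mgst2, Mgst3, Sult1c2, Sult1d1, Ugt1a7c and Ugt2b34, lower, and Sult2a8 and Sult5a1, higher.

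In 18 of the 36 tested members (50%) the 3 KO libraries all lay below the 3 WT libraries, against 17.3% of all genes tested. These were the lower DESeq2 calls above without Gstm3, together with Gstm4, Gstt2, Sult1b1, Sult2b1 and Sult6b1. In 2, Sult4a1 and Sult5a1 (5.56%), they all lay above, against 15%. The median log2 ratio (KO over WT) of the tested members was -1.60, beside 0.06 over all genes tested, and single members ran from -5.55 to 3.39. Without WT 2 it was -0.87 over the same 36 members, and -0.44 over the 39 that then had enough reads. WT 2 was the highest WT library in 27 of 36 members. Leaving out KO 2 gave 14 members past the adjusted threshold with edgeR (13 lower, 1 higher, Sult4a1), and 7.75% of all genes passed as lower and 2.64% as higher there. Without KO 3, the library poorest in epithelial RNA, 15 members were lower and 2 higher at an unadjusted p under 0.05, beside 10.3% and 8.43% of all genes in that fit, and the median was -1.58. The number of higher members, 4, was 7 of 40 tested (all genes 9.45%) without WT 1 and 7 of 41 tested (all genes 10.98%) without KO 1. It was 2 of 40 tested (all genes 6.74%) without WT 3, 2 of 38 tested (all genes 13.9%) without KO 2 and 2 of 38 tested (all genes 8.43%) without KO 3. Upper-quartile scaling moved the median of all genes from 0.06 to 0.21. All genes at an unadjusted p under 0.05 then split into 10.03% lower and 15.9% higher, and the members into 15 lower and 6 higher.

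**Figure D1:**
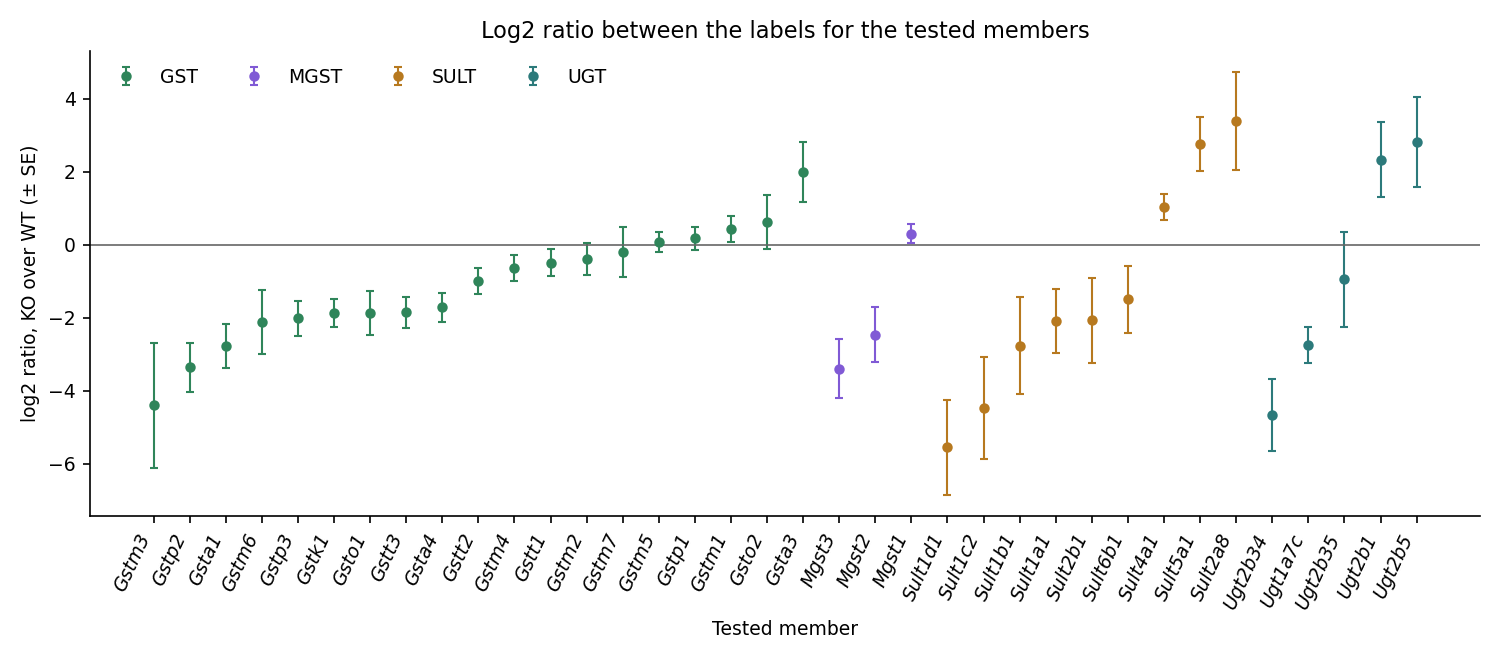
Log2 ratio of KO over WT, with its standard error, for the 36 tested members, coloured by family and ordered within it (n = 3 libraries per label). Sult1d1 is lowest at -5.55 and Sult2a8 highest at 3.39, and 25 of the 36 points lie below 0.

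The members' summed level was 1684, 3078 and 1869 CPM over WT 1, 2 and 3, with 632, 1235 and 709 CPM over KO 1, 2 and 3. Each KO library was below each WT library. The make-up of the sum also differed. Gstm1, Gstp1 and Mgst1 together were 13.4 to 19.6% of it in WT libraries and 43.1 to 56.6% in KO libraries. These 3 genes were picked after their values were seen, so the shares are a description. Ugt genes summed to 97.8, 437 and 176 CPM over WT 1, 2 and 3, with 11.1, 36.5 and 34.97 CPM over KO 1, 2 and 3, and Sult genes to 370.2, 790.2 and 419 CPM over WT 1, 2 and 3, with 66.4, 173 and 68.8 CPM over KO 1, 2 and 3.

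**Figure D2:**
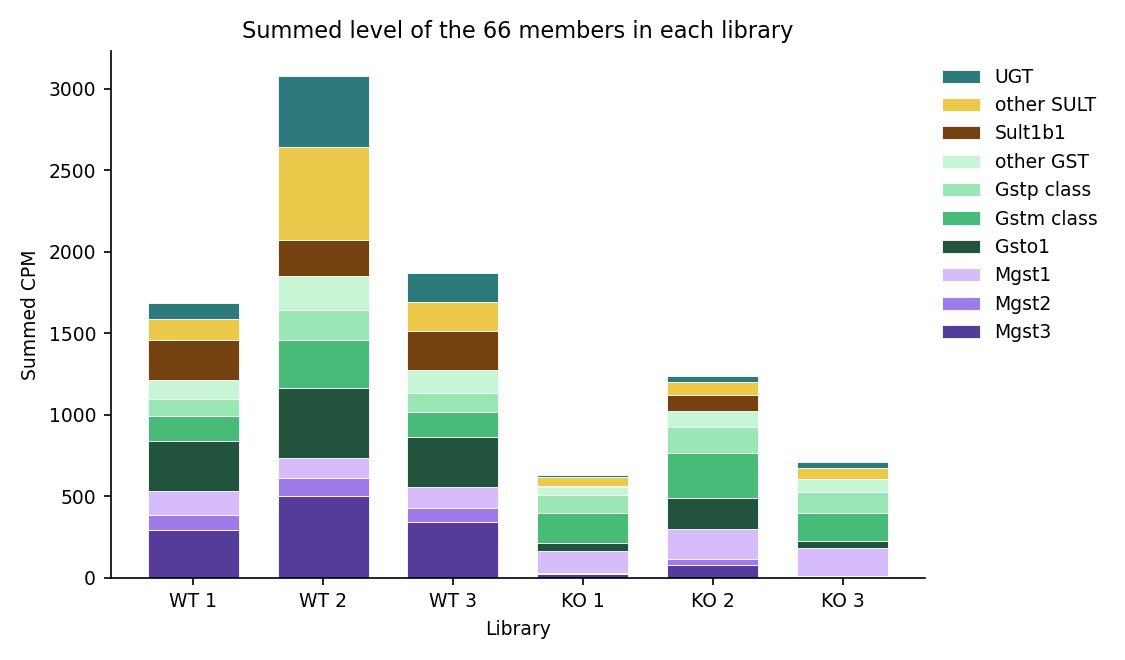
Stacked bars of summed CPM of all 66 members in each library, split into genes or classes named in the key. WT 2 is tallest at 3078 CPM and KO 1 shortest at 632 CPM, while the Mgst1 segment stays between 119.7 and 187 CPM.

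Per deposited gene length, Mgst3 was the most abundant member in WT libraries, at 345 ± 98.1 RPKM (SD, n = 3), and Gsto1, Gstp1 and Sult1b1 came next at 178 ± 37.01, 149 ± 46.2 and 83.99 ± 4.24 RPKM. Gstm1, Sult1a1, Mgst1 and Sult1d1 followed at 69.2 ± 22.8, 68.7 ± 84.1, 65.7 ± 6.76 and 50.5 ± 35.6 RPKM, with spreads that overlap. In KO libraries the order began with Gstp1, Gstm1 and Mgst1 at 168 ± 34.3, 93.8 ± 30.5 and 80.9 ± 12.9 RPKM. Gsto1 and Mgst3 stood below them at 48.7 ± 40.8 and 32.7 ± 32.8 RPKM, each with a spread close to its mean. The place of Gstp1 depends on the length used: the deposited 757 bases are fewer than its 1548 exonic bases in GENCODE M21, and at the latter it had 72.6 RPKM in WT and 82.3 RPKM in KO libraries, the second below Gstm1.

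Sulfotransferases of the Sult1 class held some of the widest gaps between the labels. Sult1b1 (ENSMUSG00000029269, chromosome 5, 87513339 to 87538195, GRCm38), an enzyme of gut that sulfates phenols and thyroid hormones, was at 242 (WT 1), 220.1 (WT 2) and 238 CPM (WT 3), against 8.499 (KO 1), 93.6 (KO 2) and 1.01 CPM (KO 3). Its WT libraries were close together, and the KO libraries all lay below them with a wide spread, KO 2 the highest. The log2 ratio was -2.76 ± 1.33 (SE), and edgeR's adjusted p was 0.256. Sult1d1 (ENSMUSG00000029273, chromosome 5, 87554645 to 87569027), which sulfates catecholamines in rodents, was at 55.98, 223 and 93.4 CPM over WT 1, 2 and 3, with 0.346, 7.04 and 0.466 CPM over KO 1, 2 and 3. Every KO library was several-fold below WT 1, the lowest WT library, and KO 1 and KO 3 rested on 7 and 6 reads. Its log2 ratio of -5.55 ± 1.3 (SE) was the lowest of all members, with an adjusted p of 0.0999 by edgeR.

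Sult1a1, the main phenol sulfotransferase, was at 23.1 (WT 1), 249.6 (WT 2) and 37.6 CPM (WT 3), against 19.4 (KO 1), 30.5 (KO 2) and 23.5 CPM (KO 3). Here a single library stood out: WT 2 was far above the rest, and the other 5 overlapped. The mean of 103 ± 127 CPM for the WT libraries and 24.4 ± 5.62 CPM for the KO libraries (SD, n = 3 each) and the log2 ratio of -2.08 therefore rest on WT 2, without which the ratio was -0.34. Sult1c2 followed the same order among WT libraries, at 5.17, 43.5 and 10.1 CPM over WT 1, 2 and 3, with 0.0494, 0.229 and 2.49 CPM over KO 1, 2 and 3, with 1 read in KO 1 and 4 in KO 2. Its labels did not overlap, and the log2 ratio was -4.48 ± 1.41 (SE). The 15 colonocyte markers summed to 35739, 26677 and 30846 CPM over WT 1, 2 and 3, with 2175, 14883 and 845 CPM over KO 1, 2 and 3, so WT 2 was lowest among WT libraries in their sum. They were Slc26a3, Car1, Car2, Car4, Krt20, Aqp8, Ceacam1, Guca2a, Guca2b, Slc20a1, Cdhr5, Saa1, Emp1, Lypd8 and Vil1. Lypd8 gave much of the WT sums, at 16476, 12709 and 16473 CPM over WT 1, 2 and 3. Emp1, the only one with a positive log2 ratio (0.21), gave 592 CPM of the sum in KO 3. Single markers differed, with Car2 highest and Krt20 lowest in WT 2 among the WT libraries, at 279 (WT 1), 1537 (WT 2) and 399 CPM (WT 3), against 26.2 (KO 1), 48.1 (KO 2) and 10.6 CPM (KO 3) for Car2 and 2329.6, 956 and 1634 CPM over WT 1, 2 and 3, with 181, 1479 and 8.004 CPM over KO 1, 2 and 3 for Krt20.

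Sult2b1, which sulfates cholesterol and pregnenolone, was at 30.2 (WT 1), 42.5 (WT 2) and 25.7 CPM (WT 3), against 3.805 (KO 1), 19.3 (KO 2) and 0.155 CPM (KO 3). KO 2 reached 19.3 CPM, not far under WT 3, while KO 3 had 2 reads. The log2 ratio was -2.07 ± 1.17 (SE), with an unadjusted p of 0.119 by edgeR although the labels did not overlap. By contrast, Sult4a1, an enzyme best known from neurons, was at 9.45, 10.4 and 11.2 CPM over WT 1, 2 and 3, with 28.9, 12.5 and 21.7 CPM over KO 1, 2 and 3. All KO libraries exceeded all WT libraries, by little in KO 2, and the log2 ratio was 1.02 ± 0.36 (SE) with an adjusted p of 0.156 by edgeR. Sult5a1, a low gene, was at 1.96 (WT 1), 0.316 (WT 2) and 1.003 CPM (WT 3), against 4.64 (KO 1), 5.55 (KO 2) and 12.4 CPM (KO 3) and also did not overlap, with a log2 ratio of 2.77 ± 0.74 (SE).

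**Figure D3:**
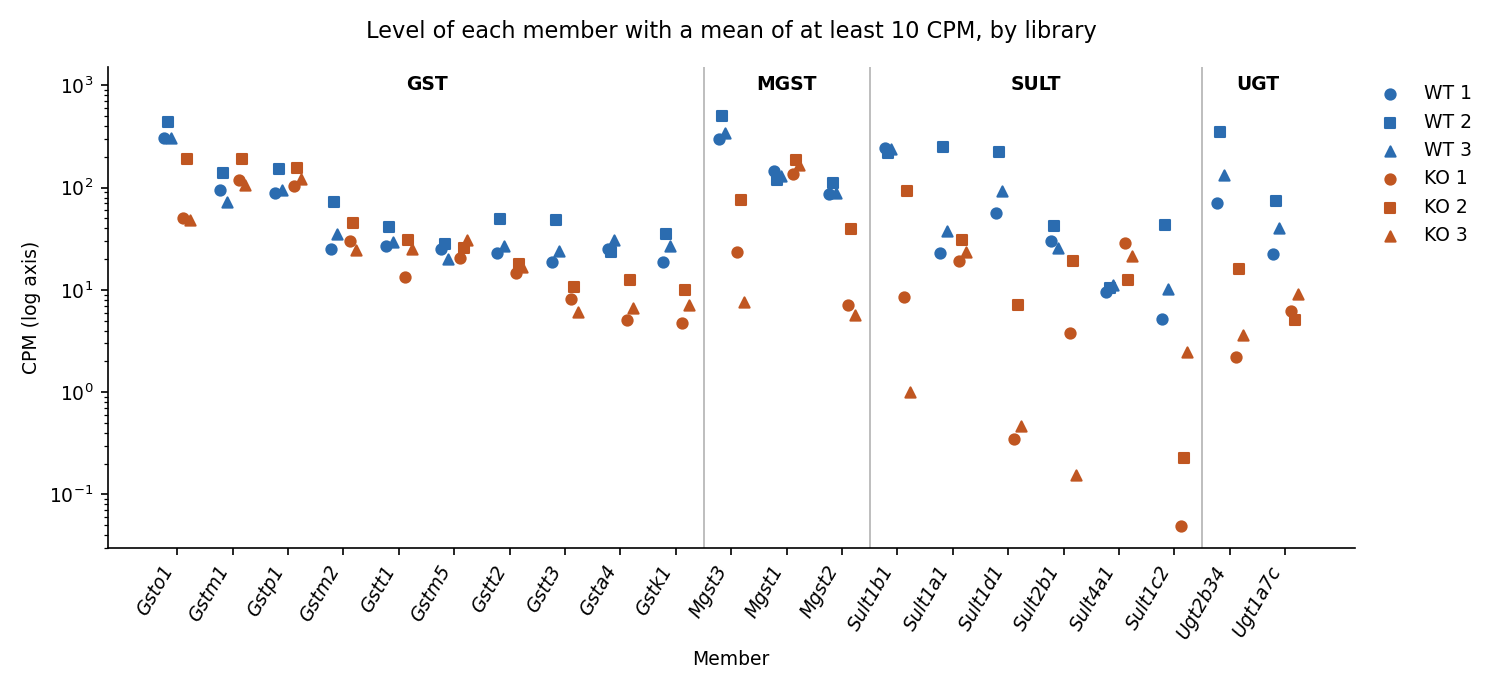
CPM on a log axis for the 21 members with a mean of at least 10 CPM, 1 point per library, wild-type label in blue and knockout label in orange, grouped by family. In 13 of these members all orange points lie below all blue points, in 1 (Sult4a1) above, and KO 2, the orange square, is most often the highest KO library.

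Most Ugt reads in WT libraries came from 2 genes. Ugt2b34 (ENSMUSG00000029260, chromosome 5, 86889767 to 86906937) was at 70.5, 349 and 134 CPM over WT 1, 2 and 3, with 2.22, 15.9 and 3.65 CPM over KO 1, 2 and 3. Both labels spread widely, yet the lowest WT library was several-fold above the highest KO library. The means were 185 ± 146 CPM for the WT libraries and 7.26 ± 7.52 CPM for the KO libraries (SD, n = 3 each), and the log2 ratio was -4.67 ± 0.99 (SE) with an adjusted p of 0.0953 by edgeR. Ugt1a7c (ENSMUSG00000090124, chromosome 1, 88095062 to 88220002) was at 22.5 (WT 1), 74.04 (WT 2) and 40.3 CPM (WT 3), against 6.18 (KO 1), 5.09 (KO 2) and 9.17 CPM (KO 3). The KO libraries lay close together, KO 2 the lowest of them, unlike in most members. Its log2 ratio was -2.74 ± 0.49 (SE), again with an adjusted p of 0.09398 by edgeR.

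Reads of Ugt1a genes cannot be parted with certainty. Ugt1a genes have their own first exons and share the later ones, and 54.6% of the exonic bases of Ugt1a7c were shared with other genes on its strand in GENCODE M21. The longest coding sequences of Ugt1a7c and Ugt1a6a were 100% identical. The count of Ugt1a7c may thus stand for the locus, and the other 8 Ugt1a genes had at most 36 reads in any library. Among them Ugt1a1, the bilirubin enzyme, had 12, 24 and 3 reads over WT 1, 2 and 3, with 3, 4 and 5 reads over KO 1, 2 and 3. Ugt1a6a had 4, 36 and 11 reads over WT 1, 2 and 3, with 3, 0 and 6 reads over KO 1, 2 and 3. Both were highest in WT 2, as Ugt1a7c was, and neither passed the filter for the test.

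Ugt2b34 sits at one end of a cluster on chromosome 5, where 13 members lie within 702 kb, the Ugt2a and Ugt2b genes together with Sult1b1, Sult1d1 and Sult1e1. Neighbours in it had log2 ratios of opposite sign. Ugt2b1 was at 1.07, 0.506 and 0.05897 CPM over WT 1, 2 and 3, with 0.642, 3.43 and 4.27 CPM over KO 1, 2 and 3, and Ugt2b5 at 0.951 (WT 1), 0.316 (WT 2) and 0 CPM (WT 3), against 0.544 (KO 1), 3.72 (KO 2) and 4.896 CPM (KO 3). Both were low genes that were highest in KO 2 and KO 3, while KO 1 lay among the WT libraries. The log2 ratios were 2.33 ± 1.02 (SE) and 2.82 ± 1.23 (SE), with adjusted p-values of 0.218 and 0.216 by edgeR. Ugt2b35 was at 0.357, 9.43 and 0.5897 CPM over WT 1, 2 and 3, with 0.395, 1.601 and 3.42 CPM over KO 1, 2 and 3. It overlapped between the labels, and its log2 ratio of -0.95 became 1.88 without WT 2. Coding sequences of Ugt2b5 were 97% identical to Ugt2b38 and 94.7% to Ugt2b37, which makes the assignment of its few reads uncertain.

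The levels of Ugt2b1 and Ugt2b5 across libraries resembled those of 2 other members, Sult2a8 and Gsta3, picked after their values were seen. Sult2a8, a sulfotransferase of mouse liver that acts on bile acids, was at 0.773 (WT 1), 0 (WT 2) and 0.177 CPM (WT 3), against 0.395 (KO 1), 3.03 (KO 2) and 6.92 CPM (KO 3). Gsta3, an alpha class transferase abundant in liver, was at 2.26, 5.32 and 0.885 CPM over WT 1, 2 and 3, with 3.06, 14.9 and 15.9 CPM over KO 1, 2 and 3. In both, KO 2 and KO 3 were the highest libraries and KO 1 overlapped with the WT libraries, so the log2 ratios of 3.39 ± 1.34 (SE) and 1.998 ± 0.82 (SE) describe those libraries and not the label as a whole. Another 3 members, below the filter for the test, had the same high libraries. Ugt2b36 had 6, 0 and 1 reads over WT 1, 2 and 3, with 0, 42 and 47 reads over KO 1, 2 and 3. Ugt3a2 had 2, 0 and 1 reads over WT 1, 2 and 3, with 7, 28 and 31 reads over KO 1, 2 and 3, and Ugt2a3 had 10, 0 and 0 reads over WT 1, 2 and 3, with 5, 22 and 29 reads over KO 1, 2 and 3. Without KO 1, the number of members higher without overlap was not 2 but 11 of 41 tested, beside 22% of all genes in that comparison.

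Transcripts of hepatocytes, the main cells of liver, had the same high libraries as these members. The 8 hepatocyte markers (Alb, Apoa2, Ttr, Serpina1a, Fgb, Cyp2e1, Cps1 and Ahsg) summed to 132, 39.3 and 72.4 CPM over WT 1, 2 and 3, with 93.98, 817 and 696 CPM over KO 1, 2 and 3. Alb, which encodes serum albumin, was at 50.8 (WT 1), 1.01 (WT 2) and 2.89 CPM (WT 3), against 43.1 (KO 1), 522 (KO 2) and 484 CPM (KO 3), and Ahsg, which encodes fetuin-A, at 4.52, 0.0633 and 0.354 CPM over WT 1, 2 and 3, with 5.83, 50.8 and 39.9 CPM over KO 1, 2 and 3. KO 2 and KO 3 were highest for 7 of the 8 markers, and the exception, Cyp2e1, was at 57.5 (WT 1), 20.6 (WT 2) and 61.3 CPM (WT 3), against 23.2 (KO 1), 97.2 (KO 2) and 39.2 CPM (KO 3). Serpina1a and Fgb were at 0 in WT 2, and no other marker was at 0. At an unadjusted p under 0.05 by edgeR, 6 of 8 were higher and 0 lower, beside 11.8% and 12.3% of all genes tested. The part of hepatocyte RNA in the levels of Ugt2b1, Ugt2b5, Sult2a8 and Gsta3 was not tested.

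**Figure D4:**
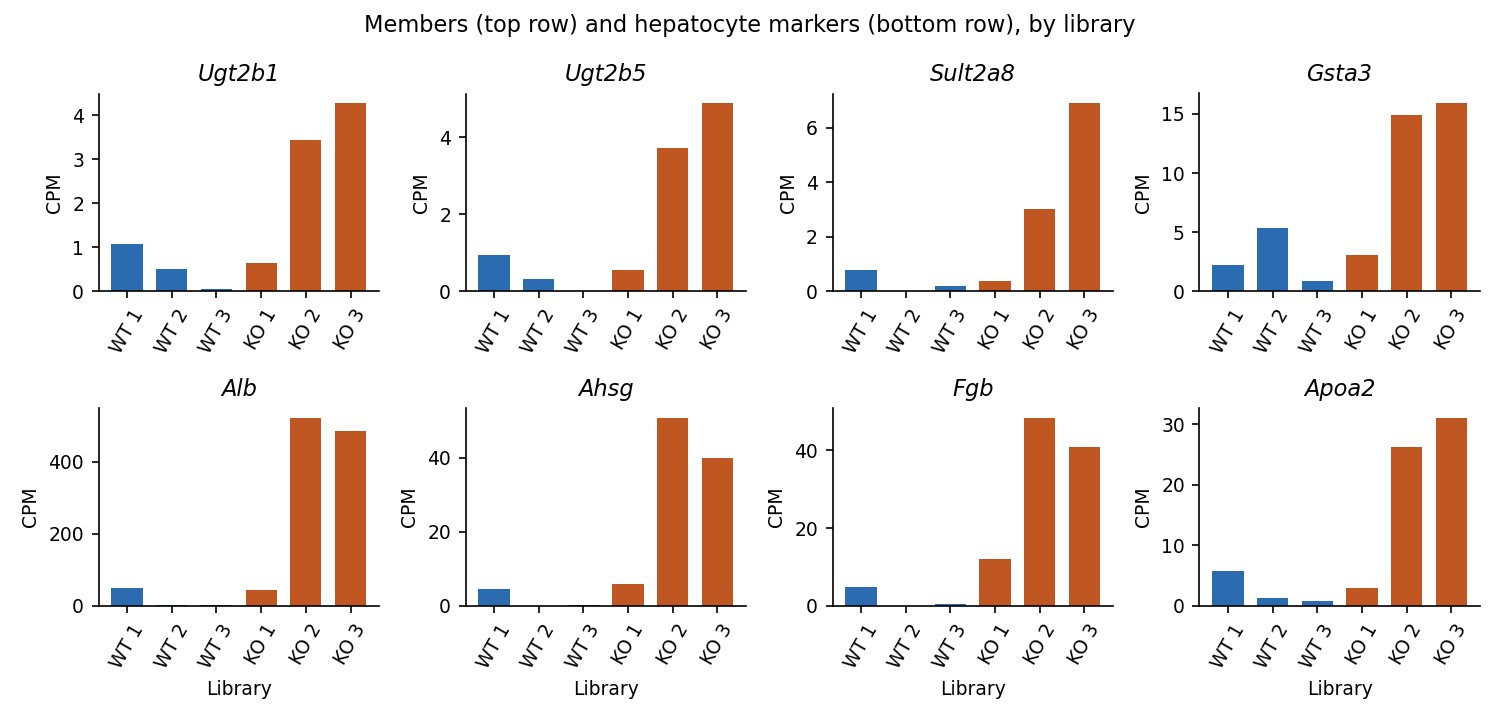
CPM in each library, on linear axes with separate scales, of the members Ugt2b1, Ugt2b5, Sult2a8 and Gsta3 (top) and of the hepatocyte markers Alb, Ahsg, Fgb and Apoa2 (bottom). In all 8 panels KO 2 and KO 3 are the tallest bars, with Alb at 522 and 484 CPM and KO 1 at 43.1 CPM.

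The microsomal glutathione transferases split. Mgst3 (ENSMUSG00000026688, chromosome 1, 167371966 to 167393841), a membrane enzyme that conjugates glutathione and reduces lipid hydroperoxides, was at 296, 500.5 and 339.7 CPM over WT 1, 2 and 3, with 23.6, 76.4 and 7.69 CPM over KO 1, 2 and 3. WT libraries were all several-fold above KO 2, the highest KO library. The log2 ratio was -3.398 ± 0.81 (SE), with an adjusted p of 0.0999 by edgeR. Mgst2, which can form leukotriene C4, was at 87.3 (WT 1), 112 (WT 2) and 88.1 CPM (WT 3), against 7.07 (KO 1), 38.95 (KO 2) and 5.67 CPM (KO 3). It had the same order of KO libraries, and a log2 ratio of -2.47 ± 0.75 (SE). Mgst1 (ENSMUSG00000008540, chromosome 6, 138140316 to 138156755), which protects membranes from peroxidation, was at 147, 119.7 and 130.2 CPM over WT 1, 2 and 3, with 135, 187 and 167 CPM over KO 1, 2 and 3. Its labels overlapped in a narrow range, and the log2 ratio was 0.301 ± 0.26 (SE) with a 95% interval of 0.807 to 1.88 for the ratio. Under upper-quartile scaling the Mgst1 libraries no longer overlapped, KO above WT, with a log2 ratio of 0.45.

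Among cytosolic transferases, Gsto1 (ENSMUSG00000025068, chromosome 19, 47854970 to 47864790), an omega class enzyme that also reduces dehydroascorbate, was at 309 (WT 1), 435 (WT 2) and 308 CPM (WT 3), against 50.2 (KO 1), 189 (KO 2) and 48.6 CPM (KO 3). KO 1 and KO 3 were close to each other and KO 2 lay between them and the WT libraries. The means were 351 ± 72.8 CPM for the WT libraries and 95.7 ± 80.3 CPM for the KO libraries (SD, n = 3 each), a log2 ratio of -1.87 ± 0.59 (SE) with an adjusted p of 0.133 by edgeR. Its neighbour Gsto2 was a low gene at 0.535, 0.823 and 0.531 CPM over WT 1, 2 and 3, with 0.247, 1.09 and 1.63 CPM over KO 1, 2 and 3. The labels of Gsto2 overlapped, and its log2 ratio of 0.63 turned to -0.18 with limma-voom and quality weights.

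Pi class genes lie side by side on chromosome 19 and differed in their values. Gstp1, which detoxifies a wide range of electrophiles, was at 89.4 (WT 1), 153 (WT 2) and 95.2 CPM (WT 3), against 105 (KO 1), 156 (KO 2) and 122 CPM (KO 3). The labels overlapped, the log2 ratio was 0.18 ± 0.31 (SE) with a 95% interval of 0.6805 to 1.89 for the ratio, and without KO 2 it was -0.031. Gstp2 was at 3.51, 12.5 and 7.84 CPM over WT 1, 2 and 3, with 0.889, 0.343 and 1.09 CPM over KO 1, 2 and 3. Here the labels did not overlap, and the log2 ratio was -3.36 ± 0.67 (SE) with an adjusted p of 0.09398 by edgeR. The coding sequences of Gstp1 and Gstp2 were 98.1% identical, and the counting of reads that map to both is not given in the sources used here: the Gstp2 count is uncertain. Gstp3, 72.8% identical to Gstp1, was at 11.4 (WT 1), 16.7 (WT 2) and 13.8 CPM (WT 3), against 2.62 (KO 1), 5.72 (KO 2) and 1.94 CPM (KO 3), and its labels did not overlap either.

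Gsta1, Gsta4 and Gstk1, of the alpha and kappa classes, were lower in every KO library than in every WT library. Gsta4, which conjugates the lipid peroxidation product 4-hydroxynonenal, was at 24.8, 23.7 and 30.4 CPM over WT 1, 2 and 3, with 5.04, 12.4 and 6.61 CPM over KO 1, 2 and 3, with a log2 ratio of -1.72 ± 0.39 (SE). Gstk1, a transferase of mitochondria and peroxisomes, was at 18.8 (WT 1), 34.99 (WT 2) and 26.7 CPM (WT 3), against 4.79 (KO 1), 10.1 (KO 2) and 7.07 CPM (KO 3), with a log2 ratio of -1.88 ± 0.39 (SE). In both the WT libraries all exceeded KO 2, the highest KO library, and the adjusted p-values were 0.0983 and 0.09398 by edgeR. Gsta1 was at 2.85, 6.01 and 4.72 CPM over WT 1, 2 and 3, with 0.544, 1.09 and 0.311 CPM over KO 1, 2 and 3, a log2 ratio of -2.78 ± 0.61 (SE). Gsta1 is 97.6% identical to Gsta2 in coding sequence, and Gsta2 had at most 9 reads.

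Theta class genes differed among themselves. Gstt3 was at 18.5 (WT 1), 47.8 (WT 2) and 23.8 CPM (WT 3), against 8.15 (KO 1), 10.6 (KO 2) and 6.06 CPM (KO 3), and Gstt2 at 22.7, 48.98 and 26.7 CPM over WT 1, 2 and 3, with 14.5, 18.1 and 16.6 CPM over KO 1, 2 and 3. Neither overlapped between the labels, and the log2 ratios were -1.86 ± 0.43 (SE) and -0.998 ± 0.34 (SE). Gstt1 was at 26.7 (WT 1), 40.9 (WT 2) and 29.5 CPM (WT 3), against 13.4 (KO 1), 30.4 (KO 2) and 25.3 CPM (KO 3). KO 1 and KO 3 lay below the WT libraries and KO 2 among them, and the log2 ratio was -0.49 ± 0.36 (SE) with a 95% interval of 0.397 to 1.28 for the ratio. In the annotation 13.6% of the exonic bases of Gstt3 were shared with another gene on its strand.

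Mu class genes, 7 neighbours on chromosome 3, overlapped between the labels except Gstm4. Gstm1, which took the most reads among them, was at 94.1, 139 and 72.9 CPM over WT 1, 2 and 3, with 119, 189.5 and 106 CPM over KO 1, 2 and 3, a log2 ratio of 0.44 ± 0.36 (SE) with a 95% interval of 0.758 to 2.42 for the ratio. Gstm2 was at 24.9 (WT 1), 72.01 (WT 2) and 35.03 CPM (WT 3), against 30.3 (KO 1), 45.1 (KO 2) and 24.8 CPM (KO 3), and Gstm5 at 25.3, 28.2 and 20.2 CPM over WT 1, 2 and 3, with 20.6, 25.8 and 30.9 CPM over KO 1, 2 and 3. KO and WT values interleaved in all of these. The log2 ratio of Gstm2 was -0.396 and became 0.13 without WT 2. That of Gstm5 was 0.07, and it turned to -0.10 without KO 3 and -0.07 without WT 3. Gstm3 and Gstm6 had log2 ratios of -4.402 and -2.13. WT 2 was far above the other libraries in both, with Gstm3 at 0.297 (WT 1), 22.7 (WT 2) and 3.07 CPM (WT 3), against 0.148 (KO 1), 1.03 (KO 2) and 0 CPM (KO 3). Gstm7 had a log2 ratio of -0.20. Gstm4 had one of -0.63, and its labels overlapped under upper-quartile scaling. Without WT 2, both Gstm1 and Gstp1 were higher in every KO library than in WT 1 and WT 3.

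Markers of stroma, set here beside the members that overlapped, were not alike. The 10 fibroblast markers (Pdgfra, Col1a1, Col1a2, Col3a1, Dcn, Lum, Pi16, Dpt, Thy1 and Vim) summed to 2326, 1757 and 2942 CPM over WT 1, 2 and 3, with 7605, 4945 and 6219.8 CPM over KO 1, 2 and 3. The sums did not overlap, 6 of 10 markers were higher in every KO library, beside 15% of all genes tested, and none was at 0. The 8 smooth muscle markers summed to 3679, 4698 and 3255 CPM over WT 1, 2 and 3. Over KO 1, 2 and 3 they summed to 3283, 5471 and 1598 CPM, with a median log2 ratio of -0.15. The part of stromal RNA in the levels of Gstm1, Gstp1 and Mgst1 was not tested.

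Of the 18 members lower without overlap, KO 2 was the highest KO library in 14, KO 3 in 3 and KO 1 in 1. The summed epithelial markers also had KO 2 highest at 5836 CPM and KO 3 lowest at 48.4 CPM. Per library, the median tested member stood at -0.27, 0.43 and -0.12 in WT 1 to WT 3 and at -1.57, -0.75 and -1.61 in KO 1 to KO 3 on the log2 scale relative to the WT mean. The median epithelial marker stood at -4.02, -1.31 and -8.14 in KO 1 to KO 3. The families differed in this. The 9 tested Sult genes stood at a median of -1.63, -0.73 and -2.35 in KO 1 to KO 3. The median of the 5 tested Ugt genes was -0.85, 0.86 and -1.06 in WT 1 to WT 3. It was -1.52, 0.22 and 1.26 in KO 1 to KO 3. Each of these KO medians, and that of WT 3, was the value of Ugt2b35 alone. That gene had 8, 28 and 44 reads in KO 1 to KO 3, so these medians do not describe the family. In KO 3, Ugt2b34 and Ugt1a7c stood at -5.30 and -2.13, and Ugt2b1 and Ugt2b5 at 3.11 and 3.71. The summed Ugt CPM was lower in every KO library than in every WT library. The part of epithelial RNA in the members' levels was not tested.

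Genes that feed, control or follow conjugation were listed as 78 symbols in 6 lists, of which 72 were tested. None passed with edgeR. At an unadjusted p under 0.05 there were 20 lower and 11 higher, beside the 12.3% and 11.8% of all genes, and the median log2 ratio was -0.25. Upper-quartile scaling gave 16 lower and 15 higher. The lower count was 11 without WT 2 and 13 without WT 3, and the higher count was 6 without WT 3. The share of all genes higher was also smaller without WT 3, as given above. The shares of all genes lower in those fits are not given here. These counts alone therefore cannot show whether the pathway genes in particular depended on those libraries.

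Cofactor supply covers sulfate activation, UDP-glucuronate and glutathione synthesis. Of 18 tested genes of cofactor supply, 8 were lower and 2 higher at an unadjusted p under 0.05, with a median of -0.65. Papss2, which makes the sulfate donor PAPS, was at 104, 206 and 142 CPM over WT 1, 2 and 3, with 18.5, 31.2 and 19.4 CPM over KO 1, 2 and 3. The labels were well apart and the KO libraries close together, with a log2 ratio of -2.71 ± 0.37 (SE) and an adjusted p of 0.09398 by edgeR. Slc26a2, a sulfate transporter, was at 407 (WT 1), 1053 (WT 2) and 513 CPM (WT 3), against 36.96 (KO 1), 91.2 (KO 2) and 8.47 CPM (KO 3), a log2 ratio of -3.85 ± 0.89 (SE). Cth, which makes cysteine for glutathione, had a log2 ratio of -2.86 ± 0.66 (SE). Gclc, the catalytic subunit of the enzyme that limits glutathione synthesis, had values of opposite sign, at 56.99, 76.1 and 56.3 CPM over WT 1, 2 and 3, with 127, 102 and 179.8 CPM over KO 1, 2 and 3. All KO libraries exceeded all WT libraries, with a log2 ratio of 1.11 ± 0.3 (SE) and an adjusted p of 0.111 by edgeR.

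Regulators had 6 of 15 tested genes lower and 2 higher at an unadjusted p under 0.05, with a median of -0.49. The nuclear receptor genes Vdr (vitamin D receptor), Nr1h4 (the bile acid receptor FXR) and Nr1i2 (the xenobiotic receptor PXR) had log2 ratios of -3.25 ± 0.597 (SE), -2.41 ± 0.596 (SE) and -3.31 ± 1.03 (SE). Nr1i2 was at 60.1 (WT 1), 109 (WT 2) and 66.1 CPM (WT 3), against 3.805 (KO 1), 19.1 (KO 2) and 0.699 CPM (KO 3), with the KO libraries in the order of the epithelial markers. Nr1h4 had the same order of KO libraries, and Vdr did not. Vdr was at 102, 441 and 171 CPM over WT 1, 2 and 3, with 17.5, 25.7 and 32.1 CPM over KO 1, 2 and 3, so KO 3 was its highest KO library. Maff, a small partner of NRF2, had a log2 ratio of 1.32 ± 0.42 (SE). Nfe2l2, which encodes NRF2 and is named outside the rule, was at 158, 195 and 165 CPM over WT 1, 2 and 3, with 162, 172 and 157 CPM over KO 1, 2 and 3, with overlapping labels and a 95% interval of 0.632 to 1.43 for the ratio.

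NRF2 targets had 3 lower and 5 higher of 16 at an unadjusted p under 0.05, with a median of 0.22. Hmox1, which encodes the heme-degrading heme oxygenase, was at 82.9 (WT 1), 12.8 (WT 2) and 29.8 CPM (WT 3), against 226 (KO 1), 122 (KO 2) and 586 CPM (KO 3), and Me1, the cytosolic malic enzyme gene, at 26.98, 16.1 and 23.7 CPM over WT 1, 2 and 3, with 44.6, 54.8 and 46.4 CPM over KO 1, 2 and 3. Both were higher in every KO library, with log2 ratios of 2.895 ± 0.85 (SE) and 1.12 ± 0.27 (SE). Pgd, of the pentose phosphate pathway, had -0.95 ± 0.301 (SE). Neutrophil markers also had a higher sum in every KO library. The 10 markers (S100a8, S100a9, Csf3r, Cxcr2, Mmp8, Mmp9, Ngp, Retnlg, Il1r2 and Mpo) summed to 466, 11.96 and 62.04 CPM over WT 1, 2 and 3, with 1441, 1283 and 7764 CPM over KO 1, 2 and 3. Of the tested ones, 8 of 9 were higher in every KO library, beside 15% of all genes tested. Ngp was at 0 in WT 2 and Mpo in WT 2, WT 3 and KO 3. Among KO libraries, Me1 was highest in KO 2, where the neutrophil sum was lowest. Other cell types varied. The 9 macrophage markers had a median log2 ratio of -0.30 and overlapping sums, and markers of endothelium and enteric glia had medians of 1.41 and 1.89. The part of any of these cells in Hmox1 and Me1 was not tested.

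Conjugate exporters split evenly, 2 lower and 2 higher of 8 at an unadjusted p under 0.05. Abcc3, an exporter of glucuronides, was at 62.6 (WT 1), 176 (WT 2) and 129.7 CPM (WT 3), against 18.8 (KO 1), 29.9 (KO 2) and 7.69 CPM (KO 3). Abcb1a and Abcb1b, which both encode forms of P-glycoprotein, had opposite signs, with log2 ratios of -3.21 ± 0.79 (SE) and 1.75 ± 0.45 (SE). Abcb1a was at 218, 749 and 393 CPM over WT 1, 2 and 3, with 30.1, 99.3 and 17.2 CPM over KO 1, 2 and 3. Abcb1b was at 9.21 (WT 1), 4.303 (WT 2) and 4.72 CPM (WT 3), against 17.7 (KO 1), 14.01 (KO 2) and 29.5 CPM (KO 3), and neither overlapped between the labels. Abcc5 had a log2 ratio of 0.88 ± 0.36 (SE).

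The list of other conjugating enzymes gave 1 lower and 2 higher of 14 at an unadjusted p under 0.05, with a median of 0.03. This list also holds genes best known for other roles, such as Ptges, Alox5ap, Ephx1 and Ephx2. The 2 higher genes were Ptges (prostaglandin E synthase) and Alox5ap, which belong to the same membrane family as the Mgst genes. Their log2 ratios were 2.16 ± 0.505 (SE) and 2.77 ± 0.78 (SE), opposite in sign to Mgst2 and Mgst3 but not to Mgst1, at 0.301 ± 0.26 (SE). Ltc4s, in the same list and named outside the rule, had 0.002 ± 0.53 (SE). Tpmt, a thiopurine methyltransferase, had -1.27 ± 0.51 (SE) and Nnmt, which methylates nicotinamide, 1.09 ± 0.48 (SE). None of the 4 tested deconjugating enzymes had an unadjusted p under 0.05 by edgeR. Values were -0.74 ± 0.46 (SE) on the log2 scale for Arsb, -0.38 ± 0.37 (SE) for Arsk, -0.07 ± 0.37 (SE) for Arsa and 0.12 ± 0.401 (SE) for the beta-glucuronidase gene Gusb.

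The remaining members were near or below detection. Sult6b1 was tested at a mean of 1.01 and 0.341 CPM, with a log2 ratio of -1.49 ± 0.92 (SE) and 0 reads in KO 3. Of the 30 untested members, Sult2a1 to Sult2a7, Sult3a1, Sult3a2, Ugt1a2, Ugt1a8, Ugt1a10, Ugt2a1 and Ugt2a2 had no read in any library. A count of 0 allows up to 0.148 to 0.233 CPM per library, for counting error only. Ugt3a1 had 0, 0 and 0 reads over WT 1, 2 and 3, with 1, 6 and 4 reads over KO 1, 2 and 3, so its few reads were all in KO libraries. Gsta2, Gstt4, Sult1c1, Sult1e1, Sult6b2, Ugt1a5, Ugt1a6b, Ugt1a9, Ugt2b37 and Ugt2b38 had at most 9 reads in a library, too few for the test.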

How the data were processed

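Distal colon of DSS-treated mice was profiled by poly-A RNA sequencing in 6 libraries, 3 with the wild-type and 3 with the Itgbl1 -/- label, all with 1 batch date in the labels. The deposited values are whole-number counts per gene, which the authors made from trimmed reads, per the labels' protocols; the submitters' processing notes name HISAT2 2.0.5, StringTie 1.3.3b, featureCounts 1.5.0-p3, DESeq2 and the builds GRCm38 and mm10 without roles. The strand setting and the handling of multi-mapping reads were not given in the sources used here. Gene lengths are those deposited with the counts. Totals were 13326970 to 18321389 counts.

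The count test used edgeR 4.0.16 under R 4.3.3. filterByExpr (minimum count 10, minimum total 15) left 16861 genes, scaled by TMM and fitted with label as the sole term (glmQLFit, robust; glmQLFTest), with p-values adjusted by Benjamini-Hochberg over all of them. CPM uses TMM-scaled library sizes, RPKM divides it by gene length, and log2 CPM has a prior count of 2. Alternatives were other scalings and filters, protein-coding nuclear genes alone, DESeq2 1.42.0, limma-voom (3.58.1) with and without quality weights, a replicate block and each library left out. The count test was tested on simulated data. Library pairs within a label differed beyond sampling noise (chi-square per degree of freedom 50.7 to 253).

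The members, gene lists and tests were chosen with earlier results of these data known. Members with a mean of at least 10 CPM, the 3 with the smallest p per family and direction, and the 4 with the smallest p per pathway list were named. Gstp3, Gstm3, Gstm4, Gstm6, Gstm7 and Sult6b1, and the values of untested members, were named after their values were seen. Coding sequences were aligned from GENCODE M21 (Biopython 1.88) in place of proteins, which were not used here. Sts was not analysed here.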

Additional observations from a re-analysis of the deposited data

How the results depend on the processing

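Over all alternatives, the log2 ratios of the named members kept their sign in 459 of 468 values. The 9 reversals were Gsto2 (-0.18) and Ugt2b35 (0.13) with quality weights, Gstm2 (0.13) and Ugt2b35 (1.88) without WT 2, Gstm5 without WT 3 (-0.07) or KO 3 (-0.10), Gstp1 without KO 2 (-0.031), and Gstm2 (0.31) and Ugt2b35 (1.05) without KO 3 and WT 2 together, a setting chosen after seeing the data. Itgbl1 reversed to 0.33 with quality weights, 0.60 without WT 1 and 0.13 without KO 2. Genes past the adjusted threshold numbered 0 in the edgeR fit, 192 without a filter, 2274 with DESeq2, 1395 with quality weights, 3 with the replicate block and 0 to 1813 with 1 library left out; members among them numbered 0, 2, 16, 12, 0 and 0 to 14. Members lower at an unadjusted p under 0.05 were 17, 12 to 18 with 1 library left out and 11 without KO 3 and WT 2. Members higher were 4, 8 without a filter, 2 with at least 10 reads in every library, 2 with limma-voom, 1 with the replicate block, 2 to 7 with 1 library left out and 2 without KO 3 and WT 2. The members' median log2 ratio was -1.60, -0.61 without a filter (more members at few reads), -1.99 to -0.44 with 1 library left out and -0.95 without KO 3 and WT 2. Members higher without overlap numbered 2, 4 without a filter, 1 under the strict filter, 2 to 11 with 1 library left out and 5 without both. Pathway genes lower were 11 to 23 and higher 6 to 14 with 1 library left out, and 12 and 6 without both. The number of genes tested and the shares of all genes at these thresholds also changed between settings. The counts of members and pathway genes alone therefore cannot part a change in them from one in the background. The cause of these changes was not tested. With 1 library left out, log2 ratios ranged from -0.72 to 0.13 for Gstm2, -0.10 to 0.21 for Gstm5, -0.031 to 0.44 for Gstp1, -1.79 to 1.88 for Ugt2b35 and -0.57 to 0.60 for Itgbl1. The replicate number was not taken as a pairing: deviations of same-numbered libraries correlated at -0.20, 0.09 and -0.08 across genes, and not every library correlated best with its own number. Beyond the counts above, the block changed no call. Depth limits the low members: under the strict filter 23 members remain testable. Itgbl1 gave no value under the strict filter.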
